A study of Mus musculus with 20 samples.

Results

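The cristae organisation and prohibitin genes are 10 nuclear genes whose proteins shape and hold the inner mitochondrial membrane. They were listed by name, and all 10 were found by symbol among the 28632 genes of the count table. They are 5 genes of the mitochondrial contact site and cristae organising system (MICOS) Immt, Chchd3, Chchd6, Apoo and Apool, the sorting and assembly genes Samm50 and Dnajc11, the prohibitins Phb and Phb2, and the ATPase gene Atad3a.

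Total RNA of isolated pancreatic islets was sequenced as 20 libraries. The study asked whether glucose-stimulated insulin secretion needs the mitofusins Mfn1 and Mfn2, which fuse the outer membranes of mitochondria. Islet RNA sequencing was among its assays, beside imaging of mitochondrial structure and measures of mitochondrial DNA content. The 4 groups sequenced were Ctrl (n = 6), β-Mfn1KO (n = 4), β-Mfn2KO (n = 5) and β-Mfn1/2DKO (n = 5). Islets came from mice of both sexes at 12 weeks of age and were kept in culture medium for 1 day before lysis. Female mice gave Ctrl 1 to 3, β-Mfn1KO 1 to 3, β-Mfn2KO 1 and 2 and β-Mfn1/2DKO 1 and 2. Male mice gave the rest, so β-Mfn1KO 4 was the only male library of its group. β-Mfn1KO mice carried Mfn1 alleles with loxP sites around exon 4 and Ins1-Cre, β-Mfn2KO mice carried Mfn2 alleles with loxP sites around exon 6 and Ins1-Cre, and β-Mfn1/2DKO mice carried both floxed genes and Ins1-Cre, all on the C57BL/6N background. Ctrl is given as wild type in the labels, while the study's methods describe a pool of mice with Ins1-Cre alone or floxed alleles alone. Ins1-Cre acts in β cells, so the α, δ, endothelial and other cells of a whole islet kept both genes.

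The targeted genes followed the labels in every library. Mfn1 was at 1518 to 1807 normalized counts in Ctrl, 621.4 to 770.4 in β-Mfn1KO, 1683 to 1807 in β-Mfn2KO and 686.9 to 1062 in β-Mfn1/2DKO. Mfn2 was at 3089 to 4373 normalized counts in Ctrl, 3869 to 4607 in β-Mfn1KO, 1474 to 1688 in β-Mfn2KO and 2022 to 2131 in β-Mfn1/2DKO. A normalized count is a count scaled to the size of an average library, so that values of 1 gene can be compared between libraries.

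MICOS is an assembly of the inner membrane that holds open the narrow crista junctions, where cristae meet the rest of that membrane, and ties them to the outer membrane. Its core is Mic60, the product of Immt, which with Mic19 and Mic25 (Chchd3 and Chchd6) reaches across to the outer membrane protein Samm50, while Mic26 and Mic27 (Apoo and Apool) belong to a membrane-bending module that binds cardiolipin. Prohibitins form ring-shaped scaffolds in the inner membrane, and in β cells the ATP made on cristae couples glucose to insulin release.

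Depth and cell content differed between the groups. Total counts per library were 12400687 to 20329064 in Ctrl, 15745680 to 16685381 in β-Mfn1KO, 15110046 to 59533407 in β-Mfn2KO and 65533388 to 122947313 in β-Mfn1/2DKO. Every β-Mfn1/2DKO library was therefore deeper than every Ctrl and β-Mfn1KO library, and only β-Mfn2KO 4 and 5, with 55962873 and 59533407, came near them. Depth, and whatever goes with it, cannot be told apart from the loss of both mitofusins. The 9 β cell markers, led by Ins2, together made up 14.0% to 21.9% of normalized counts in Ctrl and 6.52% to 9.57% in β-Mfn1/2DKO, and all 9 fell in that comparison (median log2 fold change −1.09). In bulk islets, fewer cells of a type and less RNA per cell cannot be told apart. Ins1 was already below Ctrl (1066000 to 1962000 normalized counts) in β-Mfn1KO (658300 to 960900) and β-Mfn2KO (650400 to 844700). The Ins2 ranges of these groups overlapped that of Ctrl. The paper describes Ins1-Cre as a knockin strain, and whether that allele lowers Ins1 was not tested. The 12 acinar markers, led by Amy2a5, made up 0.0347% to 0.247% of counts in Ctrl but 2.45% and 5.96% in β-Mfn1/2DKO 4 and 5, against 0.0598%, 0.102% and 0.0628% in β-Mfn1/2DKO 1 to 3. None of the 12 was at 0 in any library.

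All 12 acinar markers rose in β-Mfn1/2DKO against Ctrl (median log2 fold change 3.77). By edgeR, 0 of 12 were called without β-Mfn1/2DKO replicate 5 (median 2.27) and 0 of 12 without replicates 4 and 5 (median −0.84). All 5 endothelial markers, led by Kdr, rose (median 0.66), and 3 of 5 did so without replicates 4 and 5 (median 0.50). Of the other lists, 1 of 6 α cell, 0 of 3 δ cell, 0 of 2 PP cell, 2 of 5 duct and 1 of 5 mesenchymal markers rose, and 1 of 6 macrophage markers fell. Without replicates 4 and 5, 0 of 5 duct markers (median −0.21, from 0.55), 0 of 5 mesenchymal and 0 of 6 macrophage markers passed. With total-count scaling 5 of 6 α cell markers rose (median 0.48, from 0.34) and 0 of 6 macrophage markers fell. Ctrl 6 and β-Mfn2KO 5 stood apart, with summed macrophage markers at 23663 and 33027 normalized counts (2599 to 4148 in the other Ctrl libraries) and mesenchymal markers at 12381 and 13255 (733 to 1799). Without Ctrl 6, 0 of 6 macrophage markers passed in β-Mfn1/2DKO (median 0.16, from −0.38) and 1 of 5 mesenchymal markers did (median 1.20, from −0.01). One duct marker was at 0 in some library. The part of these cells, and of depth, in the values of the cristae genes was not tested beyond the refits given with each gene.

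**Figure D1:**
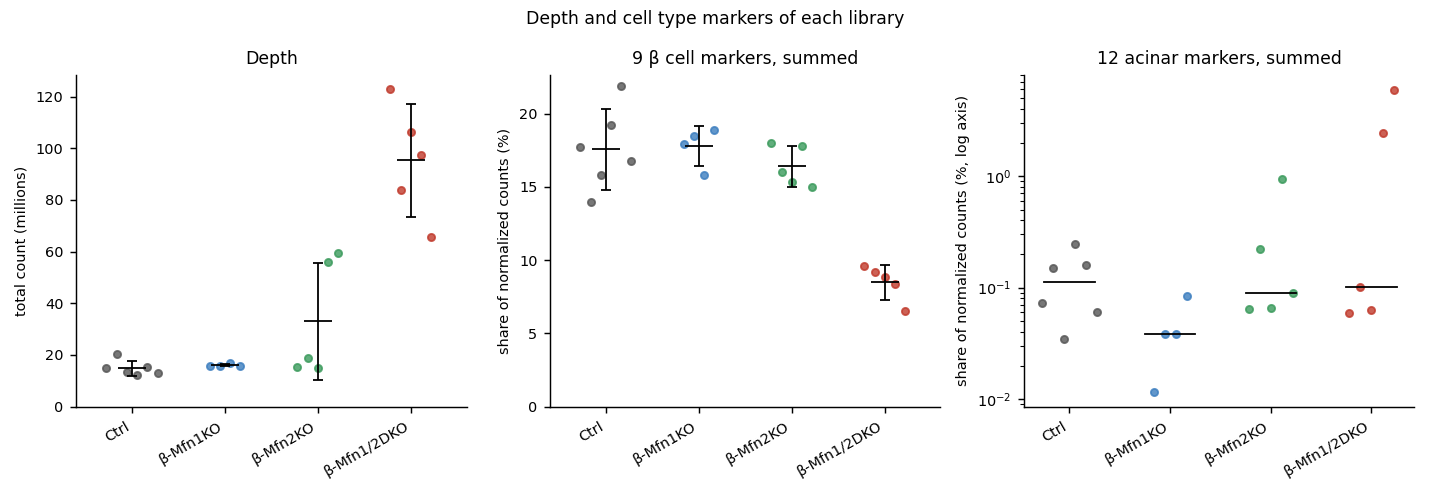
Total count (left), summed share of normalized counts of 9 β cell markers (middle) and of 12 acinar markers on a log axis (right), with 1 point per islet library by group. Bars give the mean and SD and, for acinar markers, lines give the median; β-Mfn1/2DKO libraries are the deepest, lie lowest for β cell markers, and 2 of them reach 2.45% and 5.96% acinar counts.

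Start-proximal sequence was available for 8 of the 10 genes, as 9 windows of 300 bases (250 before and 50 after the start) from RefSeq on GRCm38.p6. Each was searched on both strands for 5 motifs of factors linked to mitochondrial or stress genes. The ETS motif CCGGAAG, found in 8.86% of all 32851 windows of the same length, was in 3 of the 9 (Immt, Chchd3 and Phb2). The E-box CACGTG, found in 7.15%, was in 2 of the 9 (Chchd3 and Phb). The NRF1 motif GCGCATGC (2.71% of all windows), the ATF4 motif TGATGNAA (3.97%) and the YY1 motif AAGATGGC (2.75%) were in 0 of the 9, which says only that these letters are absent there. A match describes the letters and not a bound site. The upstream parts are printed for 2 genes that fell (Immt, Apool) and 2 that rose (Phb2, and Samm50 except with the authors' normalization factors) in β-Mfn1/2DKO islets, so that genes moving in opposite directions can be read side by side. Capitals mark ETS motifs. Each printed part is the longest upstream stretch outside annotated protein-coding genes, which leaves 110 of 250 bases for Phb2. Immt is from chr6:71831070-71831319, Apool from chrX:112311102-112311333, Samm50 from chr15:84191990-84192239 and Phb2 from chr6:124712179-124712288, all on the + strand.
Immt: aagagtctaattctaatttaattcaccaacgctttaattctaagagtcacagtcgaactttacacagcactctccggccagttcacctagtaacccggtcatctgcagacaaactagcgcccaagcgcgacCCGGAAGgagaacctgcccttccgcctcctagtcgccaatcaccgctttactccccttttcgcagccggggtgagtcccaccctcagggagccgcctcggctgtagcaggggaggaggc
Apool: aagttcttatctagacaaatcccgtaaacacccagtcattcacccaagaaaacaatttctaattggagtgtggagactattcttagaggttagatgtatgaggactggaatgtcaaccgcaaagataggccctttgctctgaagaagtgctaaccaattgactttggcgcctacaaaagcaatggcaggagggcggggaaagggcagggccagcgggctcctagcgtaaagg
Samm50: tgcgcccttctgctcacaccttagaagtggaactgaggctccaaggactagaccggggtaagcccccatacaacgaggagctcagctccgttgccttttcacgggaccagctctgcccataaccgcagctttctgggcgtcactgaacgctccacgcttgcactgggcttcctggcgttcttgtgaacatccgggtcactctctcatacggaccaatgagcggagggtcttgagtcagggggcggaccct
Phb2: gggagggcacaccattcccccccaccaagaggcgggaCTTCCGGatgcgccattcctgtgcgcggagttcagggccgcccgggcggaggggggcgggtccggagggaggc

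In the printed parts the ETS motif lay 119 bases upstream of the start in Immt and 73 bases upstream, as its reverse complement, in Phb2. Outside them the Immt window held another match, 27 bases after the start, and the Phb2 window held 2 more, at 233 bases upstream and 3 bases after the start. No searched motif was in the Apool or Samm50 windows. One falling gene and one rising gene thus held the same letters, as did Chchd3 (130 bases upstream), whose test did not pass. The Immt window overlaps Gm44771 on the opposite strand, a gene with a mean of 9.5 counts.

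All 10 genes were well measured in Ctrl islets, and their levels were ordered per kilobase of merged exons. Phb stood first with 1260 normalized counts per kilobase (SD 87.7, n = 6), above its partner Phb2 with 850 (SD 47.9). Chchd3 followed with 819 (SD 42.8), Apoo with 612 (SD 51.3) and Samm50 with 500 (SD 21.5). Immt, with 445 (SD 23.0), came sixth of the order although its normalized counts per gene were the highest of the 10. Below it lay Chchd6 with 357 (SD 26.6), Atad3a with 324 (SD 27.2), Dnajc11 with 163 (SD 5.26) and Apool with 116 (SD 11.2). The libraries of Phb2 and Chchd3 overlapped on this scale, as did those of Samm50 and Immt and of Chchd6 and Atad3a. The order depends on the length used: per kilobase of the longest protein-coding transcript Phb2 led with 2400 before Phb with 1970 and Immt with 1850, and 1 of 10 genes, Apool, kept its rank.

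Genes of near-identical copies could share reads. Of the 75-base stretches of Apoo transcripts 38.53% also occur in its pseudogene Apoo-ps (mean 3.1 counts), and of those of Phb 28.5% occur elsewhere, most in Gm7666 (mean 16.5 counts). For the other 8 genes the share was at most 3.05%. The study's methods give longer, paired reads, so these shares can overstate what the reads could not place. How reads were split between the copies was not tested.

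In β-Mfn1/2DKO islets the set moved in both directions, by small amounts. Against Ctrl, 6 of 10 genes passed an adjusted p under 0.05 in the quasi-likelihood test of edgeR, with p-values adjusted by Benjamini-Hochberg over all genes, where 16.5% of all genes passed. Among the 12274 genes with a mean of 100 or more normalized counts, which include all 10, 33.6% passed. Atad3a, Phb2, Samm50 and Dnajc11 were higher (4 of 10, against 9.59% of all genes), and Immt and Apool were lower (2 of 10, against 6.86%), although Samm50 was negative under the authors' normalization factors. No member passed with a fold change over 1.5 as well, a rule that 5.21% of all genes met; 6 had an unadjusted p under 0.05 by edgeR, and DESeq2 called 6 at an adjusted p under 0.05. The libraries of both groups did not overlap for 5 of 10 genes, against 20.6% of the 12274 genes.

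The median log2 fold change of the 10 genes was 0.11, where that of all genes was 0.06, and the median absolute change was 0.15, where the 12274 genes had 0.16. Scaling by total counts raised the median of all genes in this comparison by 0.14, and of all called genes 85.0% were then higher, against 58.3% by the scaling used here and 48.2% with the authors' factors. The size of a small log2 fold change, and for some genes its call or sign, therefore depends on the scaling. Immt went from −0.16 to −0.02 with total-count scaling, while Dnajc11, at 0.14, stayed positive in each refit (0.08 to 0.27).

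**Figure D2:**
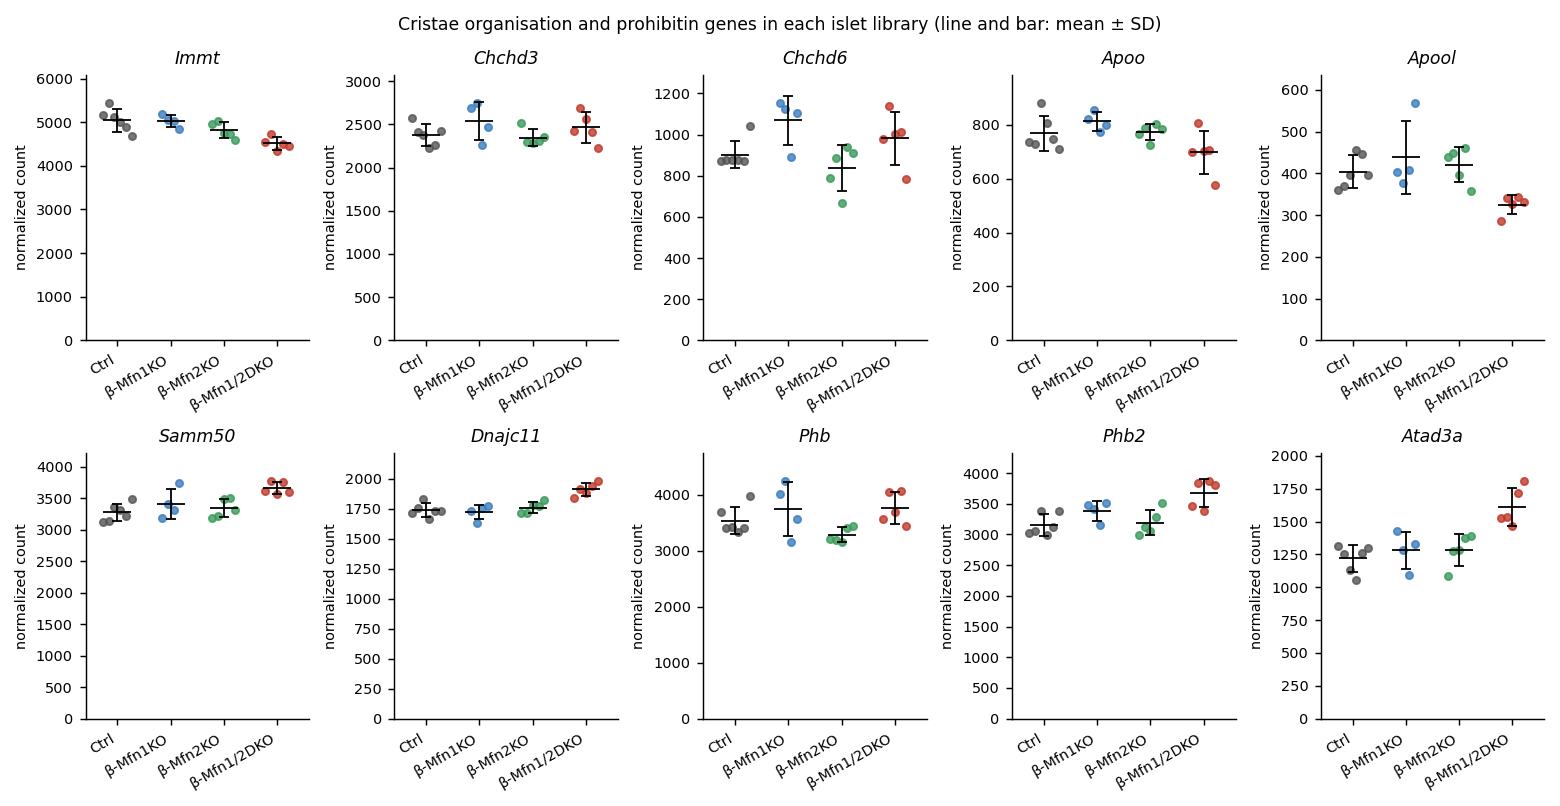
Normalized count of each of the 10 genes (vertical axes from 0) in every islet library, by group, with the mean and SD as line and bar. β-Mfn1/2DKO libraries lie apart from Ctrl for Apool, Samm50, Dnajc11, Phb2 and Atad3a, and Samm50 turned negative with the authors' normalization factors.

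Immt (ENSMUSG00000052337, GRCm38 chr6:71831331-71877388) encodes Mic60, the core subunit of MICOS. Its normalized counts ran from 4676 over a median of 5056 to 5441 in Ctrl. They were 5189, 5054, 5032 and 4843 in β-Mfn1KO, and 4962, 5037, 4757, 4737 and 4600 in β-Mfn2KO. In β-Mfn1/2DKO they were 4543, 4726, 4343, 4493 and 4462. All but the second of these 5 libraries lay below the lowest Ctrl library, so the groups touched in 1 library. Immt fell by 10.6% (log2 fold change −0.16, SE 0.04, edgeR adjusted p = 0.013, 4 of 5 libraries below every Ctrl library). With total-count scaling the value was −0.02 (edgeR adjusted p = 0.78), a change from the value above equal to the shift of all genes. The call was also lost without β-Mfn1/2DKO replicate 1 (−0.14, edgeR adjusted p = 0.054), replicate 3 (−0.12, 0.086) or replicate 4 (−0.14, 0.064), without β-Mfn1/2DKO libraries 4 and 5 together (−0.13, 0.12) and in a fit to the groups compared (−0.15, 0.051).

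Apool (ENSMUSG00000025525, GRCm38 chrX:112311334-112372755) encodes Mic27, a MICOS subunit that binds cardiolipin, and was the least abundant of the 10. Its normalized counts ran from 360.5 over a median of 395.2 to 456.0 in Ctrl. They were 402.0, 376.7, 407.3 and 568.3 in β-Mfn1KO, and 440.1, 449.0, 395.7, 459.5 and 358.6 in β-Mfn2KO. In β-Mfn1/2DKO they were 284.7, 340.6, 327.0, 342.1 and 331.5. All 5 double knockout libraries lay below every library of the other groups. Apool fell by 19.4% (log2 fold change −0.31, SE 0.10, edgeR adjusted p = 0.041, 5 of 5 libraries below every Ctrl library). The direction held in each refit, but the call lay close to the threshold and many single libraries carried it. Without Ctrl replicate 3, 4 or 5 the log2 fold change was −0.32, −0.27 and −0.28 (edgeR adjusted p = 0.056, 0.098 and 0.091), and without β-Mfn2KO replicate 3 it was −0.29 (0.062). Without β-Mfn1/2DKO replicate 1, 2, 3, 4 or 5 it was −0.24, −0.30, −0.29, −0.31 and −0.32 (edgeR adjusted p = 0.15, 0.070, 0.088, 0.070 and 0.060). It was −0.17 (0.25) with total-count scaling, −0.32 (0.051) with the authors' normalization factors and −0.32 (0.095) without β-Mfn1/2DKO libraries 4 and 5.

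The other 3 MICOS genes of the set did not pass. Apoo (ENSMUSG00000079508, GRCm38 chrX:94367117-94417093), which encodes Mic26, the close relative of Mic27, was at 709.8 to 881.3 normalized counts in Ctrl and 578.2 to 805.3 in β-Mfn1/2DKO (log2 fold change −0.14, SE 0.07, edgeR adjusted p = 0.23). In 4 of 5 double knockout libraries it was below every Ctrl library, and the fifth, with 805.3, lay among the Ctrl values. Chchd3 (ENSMUSG00000053768, GRCm38 chr6:32790976-33060260, Mic19) was at 2231 to 2573 in Ctrl and 2225 to 2694 in β-Mfn1/2DKO (log2 fold change 0.05, SE 0.06, edgeR adjusted p = 0.62). Chchd6 (ENSMUSG00000030086, GRCm38 chr6:89383146-89595652, Mic25) was at 871.4 to 1040 in Ctrl and 781.9 to 1137 in β-Mfn1/2DKO (log2 fold change 0.12, SE 0.09, edgeR adjusted p = 0.45). Both genes overlapped between the groups, and Chchd3 passed only with total-count scaling (0.19, edgeR adjusted p = 0.032).

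Samm50 (ENSMUSG00000022437, GRCm38 chr15:84192241-84217267) encodes the outer membrane channel that inserts barrel proteins and to which MICOS docks. Its normalized counts ran from 3131 over a median of 3267 to 3490 in Ctrl. They were 3182, 3415, 3313 and 3745 in β-Mfn1KO, and 3196, 3214, 3492, 3509 and 3321 in β-Mfn2KO. In β-Mfn1/2DKO they were 3615, 3772, 3569, 3763 and 3601. All 5 lay above every Ctrl and β-Mfn2KO library, while β-Mfn1KO 4 reached into their range. Samm50 rose by 11.8% (log2 fold change 0.16, SE 0.05, edgeR adjusted p = 0.018, 5 of 5 libraries above every Ctrl library), but its sign turned with the authors' normalization factors (−0.29, edgeR adjusted p = 0.099). Those factors differ from gene to gene, and relative to each library's median factor that of Samm50 averaged −0.19 (log2) in Ctrl, 0.01 in β-Mfn1KO, 0.00 in β-Mfn2KO and 0.21 in β-Mfn1/2DKO. The difference of 0.40 between the double knockout and Ctrl was the largest of the 10 genes, followed by Phb with 0.18, and the other 8 lay within 0.07 of 0. What these factors hold besides library size is not stated with the data. With DESeq2 size factors the log2 fold change of Samm50 was 0.13 (edgeR adjusted p = 0.059), and after counts were drawn down to the smallest total it was 0.10 (0.21).

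Dnajc11 (ENSMUSG00000039768, GRCm38 chr4:151933691-151982137) encodes a J-domain protein found with MICOS and Samm50. Its normalized counts ran from 1663 over a median of 1732 to 1833 in Ctrl. They were 1733, 1633, 1753 and 1769 in β-Mfn1KO, and 1712, 1711, 1779, 1773 and 1825 in β-Mfn2KO. In β-Mfn1/2DKO they were 1836, 1918, 1885, 1940 and 1979. All 5 lay above every library of the other groups, β-Mfn1/2DKO 1 by only a few counts. Dnajc11 rose by 9.90% (log2 fold change 0.14, SE 0.04, edgeR adjusted p = 0.018, 5 of 5 libraries above every Ctrl library), and the value stayed positive in each refit. The call was lost without β-Mfn1/2DKO replicate 5 (0.12, edgeR adjusted p = 0.053), without β-Mfn1/2DKO libraries 4 and 5 (0.13, 0.089) and with the acinar score as a covariate (0.13, 0.052). It was lost as well with DESeq2 size factors (0.11, 0.068), with the authors' normalization factors (0.17, 0.067) and after counts were drawn down to the smallest total (0.12, 0.15).

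Phb2 (ENSMUSG00000004264, GRCm38 chr6:124712336-124716950) encodes prohibitin 2, which alternates with prohibitin 1 in the ring. Its normalized counts ran from 2992 over a median of 3091 to 3385 in Ctrl. They were 3484, 3407, 3154 and 3504 in β-Mfn1KO, and 2985, 3123, 3061, 3282 and 3510 in β-Mfn2KO. In β-Mfn1/2DKO they were 3458, 3843, 3386, 3865 and 3805. All 5 lay above every Ctrl library, β-Mfn1/2DKO 3 by about 1 count, and they overlapped both single knockouts. Phb2 rose by 16.2% (log2 fold change 0.22, SE 0.05, edgeR adjusted p = 0.0063, 5 of 5 libraries above every Ctrl library). After counts were drawn down to the smallest total the log2 fold change was 0.15 (edgeR adjusted p = 0.089), while no single library decided the call.

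Phb (ENSMUSG00000038845, GRCm38 chr11:95666957-95680773), the gene of prohibitin 1, was at 3332 to 3975 normalized counts in Ctrl and 3449 to 4065 in β-Mfn1/2DKO. Only 2 of 5 double knockout libraries lay above every Ctrl library (log2 fold change 0.09, SE 0.07, edgeR adjusted p = 0.45). It passed only with total-count scaling (0.23, edgeR adjusted p = 0.033), and with the authors' normalization factors its log2 fold change was −0.14.

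Atad3a (ENSMUSG00000029036, GRCm38 chr4:155740641-155761093) encodes an AAA+ ATPase that spans both mitochondrial membranes at contact sites and associates with mtDNA nucleoids. Its normalized counts ran from 1059 over a median of 1259 to 1317 in Ctrl. They were 1426, 1281, 1093 and 1331 in β-Mfn1KO, and 1083, 1278, 1287, 1376 and 1388 in β-Mfn2KO. In β-Mfn1/2DKO they were 1526, 1538, 1470, 1721 and 1807. All 5 lay above every library of the other 3 groups, and the highest were β-Mfn1/2DKO 4 and 5, the libraries with the most acinar counts. Atad3a rose by 31.9% (log2 fold change 0.40, SE 0.08, edgeR adjusted p = 0.00076, 5 of 5 libraries above every Ctrl library), the largest change of the set. Without β-Mfn1/2DKO libraries 4 and 5 it was 0.33 (edgeR adjusted p = 0.010), and with the acinar score as a covariate 0.35 (0.0029).

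All 6 calls in β-Mfn1/2DKO against Ctrl were lost when depth class, β-Mfn2KO 4 and 5 and all β-Mfn1/2DKO libraries against the others, entered the fit as a covariate. The log2 fold changes were then −0.09 for Immt, −0.24 for Apool, 0.11 for Samm50, 0.08 for Dnajc11, 0.06 for Phb2 and 0.22 for Atad3a (edgeR adjusted p = 0.71, 0.62, 0.61, 0.68, 0.86 and 0.51). Each kept its sign. Since only 2 libraries outside the double knockout were deep, that fit leaves little to separate depth from genotype.

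Loss of either mitofusin alone was compared with the same Ctrl libraries, so the comparisons are not independent. In β-Mfn2KO against Ctrl 0 of 10 genes passed by edgeR, where 0.0559% of all genes did; 0 had an unadjusted p under 0.05, and DESeq2 called 0, with 1 at an unadjusted p under 0.05. Log2 fold changes ran from −0.11 (Phb) to 0.07 (Atad3a). In β-Mfn1KO against Ctrl 0 of 10 passed by edgeR, where 0.0279% of all genes did; 1 had an unadjusted p under 0.05, and DESeq2 called 0. That gene was Chchd6, with 889.1 to 1153 normalized counts against 871.4 to 1040 in Ctrl (log2 fold change 0.24, SE 0.10, edgeR adjusted p = 0.64, 3 of 4 libraries above every Ctrl library). For Atad3a the log2 fold change was 0.07 in both single knockouts, and for Apool it was 0.06 in β-Mfn2KO and 0.12 in β-Mfn1KO, beside −0.31 in β-Mfn1/2DKO. Without β-Mfn1KO replicate 4, the library with 568.3 normalized counts and the only male of its group, the Apool value in β-Mfn1KO against Ctrl was −0.03. That refit sets female β-Mfn1KO libraries against Ctrl libraries of both sexes.

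**Figure D3:**
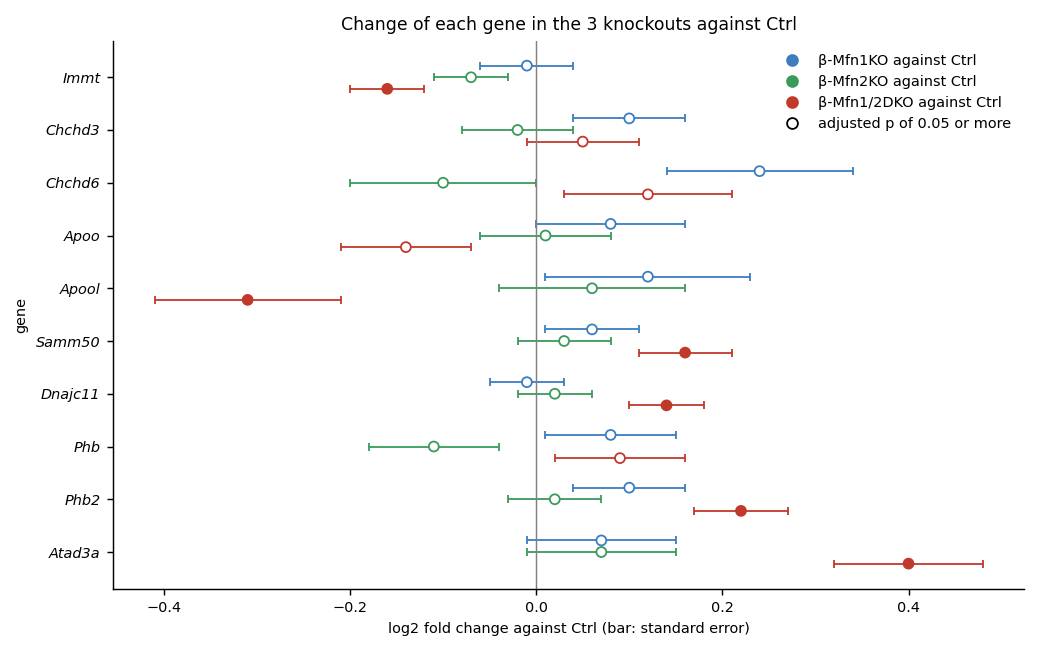
Log2 fold change against Ctrl (horizontal axis, bars SE) of each of the 10 genes in β-Mfn1KO (blue), β-Mfn2KO (green) and β-Mfn1/2DKO (red), with filled points where the edgeR adjusted p was under 0.05. Filled points occur only in β-Mfn1/2DKO, with Apool at −0.31 and Atad3a at 0.40 at the ends, and Samm50 turns to −0.29 with the authors' normalization factors.

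The added loss of Mfn1 in β cells targeted for Mfn2 was read from β-Mfn1/2DKO against β-Mfn2KO, which came from separate mice. Mfn2 itself was higher in β-Mfn1/2DKO (log2 fold change 0.4, SE 0.08, edgeR adjusted p = 0.0011). Cell content moved here too, with 9 of 9 β cell markers lower (median log2 fold change −1.11) and 5 of 5 endothelial markers higher (0.67) by edgeR. Of the other lists, 1 of 6 macrophage markers was lower (median −0.61) and 0 of 12 acinar markers passed (median 2.6). Of the set 3 of 10 genes passed by edgeR, where 13.0% of all genes and 26.6% of the 12274 genes did, and DESeq2 called 4, with Immt added (−0.11, adjusted p = 0.016). The libraries did not overlap for 5 of 10 genes and for 23.5% of the 12274. Atad3a was higher (log2 fold change 0.33, SE 0.08, edgeR adjusted p = 0.0075, 5 of 5 libraries above every β-Mfn2KO library), as was Phb2 (0.20, SE 0.06, adjusted p = 0.018, 3 of 5 libraries), and Apool was lower (−0.37, SE 0.11, adjusted p = 0.021, 5 of 5 libraries). Samm50, Dnajc11 and Phb did not overlap either, with log2 fold changes of 0.13, 0.12 and 0.20 that missed the threshold (edgeR adjusted p = 0.080, 0.058 and 0.069). Samm50 and Phb depend on the scaling, Phb being at 0.01 with the authors' normalization factors. Over 14 settings Samm50 ran from −0.13 to 0.24, so its sign turned. Against the 2 deep β-Mfn2KO libraries alone, Atad3a was at 0.27, Phb2 at 0.16 and Apool at −0.28 (edgeR adjusted p = 0.095, 0.25 and 0.24), so that 0 of 10 passed. These 2 libraries differ from the other β-Mfn2KO libraries in more than depth: β-Mfn2KO 4 had 0.936% acinar counts (0.0637% to 0.221% in the other 4), and β-Mfn2KO 5 the highest duct, mesenchymal and macrophage sums of all 20 libraries. Both come from male mice, as do β-Mfn2KO 3 and β-Mfn1/2DKO 3 to 5, while β-Mfn2KO 1 and 2 come from females. Without β-Mfn1/2DKO libraries 4 and 5 these genes were at 0.25, 0.17 and −0.39 (edgeR adjusted p = 0.073, 0.10 and 0.054). With depth class as a covariate they were at 0.22, 0.11 and −0.33 (edgeR adjusted p = 0.23, 0.41 and 0.18). Apool missed the threshold with total-count scaling (−0.26, 0.090), and Phb2 after counts were drawn down to the smallest total (0.13, 0.18).

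Total-count scaling added Samm50 (0.24, edgeR adjusted p = 0.0086), Dnajc11 (0.22, 0.0056), Phb (0.30, 0.0086) and Chchd6 (0.33, 0.032). A fit to the groups compared added Dnajc11 (0.13, 0.043) and Phb (0.21, 0.027), and filterByExpr Immt (−0.11, 0.050) and Dnajc11 (0.10, 0.035). Chchd6 passed without β-Mfn1/2DKO libraries 4 and 5 (0.32, 0.047). Single libraries decided several calls as well. Phb2 was at 0.18 (edgeR adjusted p = 0.059) without β-Mfn2KO replicate 1. Apool was at −0.35 (0.058) without β-Mfn2KO replicate 2, −0.33 (0.064) without β-Mfn2KO replicate 4 and −0.31 (0.076) without β-Mfn1/2DKO replicate 1. In the other direction, Dnajc11 passed without β-Mfn2KO replicate 3 (0.14, edgeR adjusted p = 0.039), β-Mfn2KO replicate 5 (0.15, 0.026) or β-Mfn1/2DKO replicate 1 (0.15, 0.030), replicate 2 (0.14, 0.049) or replicate 3 (0.14, 0.043). Phb passed without β-Mfn1KO replicate 3 (0.20, 0.035), β-Mfn2KO replicate 5 (0.24, 0.038), β-Mfn1/2DKO replicate 1 (0.23, 0.041) or β-Mfn1/2DKO replicate 5 (0.23, 0.045). Samm50 passed without β-Mfn2KO replicate 3 (0.17, 0.036) or β-Mfn1/2DKO replicate 3 (0.16, 0.049), and Chchd6 without β-Mfn1/2DKO replicate 5 (0.29, 0.038), from 0.22 with all libraries.

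The added loss of Mfn2 in β cells targeted for Mfn1 was read from β-Mfn1/2DKO against β-Mfn1KO, again separate mice. Mfn1 itself did not pass (log2 fold change 0.24, SE 0.11, edgeR adjusted p = 0.14). Here 9 of 9 β cell markers were lower (median −1.25), and 12 of 12 acinar (5.33), 5 of 5 endothelial (0.88) and 3 of 5 duct markers (1.63) were higher. So was 1 of 5 mesenchymal markers (1.29), while 1 of 2 PP cell markers was lower (−0.37). By edgeR 4 of 10 genes passed, where 17.4% of all genes and 35.1% of the 12274 did, and DESeq2 called 5, with Apoo added. The libraries did not overlap for 4 of 10 genes and for 32.0% of the 12274. Apool was lower (log2 fold change −0.43, SE 0.11, edgeR adjusted p = 0.0092, 5 of 5 libraries below every β-Mfn1KO library). It was at −0.28 (edgeR adjusted p = 0.075) without β-Mfn1KO replicate 4, the library with 568.3 normalized counts and the only male of its group. Atad3a was higher (0.33, SE 0.09, edgeR adjusted p = 0.0086, 5 of 5 libraries), at 0.26 (0.059) without β-Mfn1/2DKO libraries 4 and 5 and at 0.23 (0.12) with the acinar score as a covariate. Dnajc11 was higher (0.15, SE 0.04, edgeR adjusted p = 0.018, 5 of 5 libraries), but missed the threshold without β-Mfn1KO replicate 2 (0.13, 0.076), with DESeq2 size factors (0.12, 0.053), with the authors' normalization factors (0.19, 0.063) and in a fit to the groups compared (0.16, 0.057). It missed it too with the acinar score as a covariate (0.13, 0.12), after counts were drawn down to the smallest total (0.12, 0.21) and without β-Mfn1/2DKO libraries 4 and 5 (0.15, 0.070). Immt was lower (−0.16, SE 0.05, edgeR adjusted p = 0.029, 5 of 5 libraries), but was at 0.01 (0.96) with total-count scaling, which raised the median of all genes by 0.16 here and by 0.10 in the comparison with β-Mfn2KO.

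The Immt call against β-Mfn1KO was lost in a fit to the groups compared (−0.15, edgeR adjusted p = 0.083), with sex (−0.13, 0.062) or the acinar score (−0.15, 0.11) as a covariate, without β-Mfn1/2DKO libraries 4 and 5 (−0.12, 0.19) and in 10 of the refits that left out 1 library. Without β-Mfn1KO replicate 1, 2 or 3 Immt was at −0.14, −0.15 and −0.16 (edgeR adjusted p = 0.093, 0.064 and 0.052). Without β-Mfn2KO replicate 3 or 5 it was at −0.13 both times (0.079 and 0.073). Without β-Mfn1/2DKO replicate 1, 2, 3, 4 or 5 it was at −0.13, −0.14, −0.12, −0.13 and −0.15 (0.10, 0.057, 0.15, 0.12 and 0.052). With depth class as a covariate Immt was at −0.08, Apool at −0.36, Dnajc11 at 0.10 and Atad3a at 0.15 (edgeR adjusted p = 0.73, 0.37, 0.59 and 0.70). Apool was at −0.27 (edgeR adjusted p = 0.084) with total-count scaling, while Samm50 (0.27, 0.0044) and Phb2 (0.28, 0.0064) passed. Over 13 settings Samm50 ran from −0.13 to 0.27 and Phb2 from −0.04 to 0.28, so both changed sign. Apoo, at −0.22 (0.063) with all libraries, passed with DESeq2 (−0.24, 0.018), DESeq2 size factors (−0.25, 0.034) or filterByExpr (−0.23, 0.024), after counts were drawn down to the smallest total (−0.33, 0.0065) and without Ctrl replicate 3 (−0.22, 0.048) or β-Mfn1/2DKO replicate 2 (−0.25, 0.032).

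Whether the effect of Mfn1 loss differed with and without Mfn2 was tested as the difference between the change from β-Mfn2KO to β-Mfn1/2DKO and that from Ctrl to β-Mfn1KO. By edgeR 0 of 10 genes passed, where 5.92% of all genes did; 4 had an unadjusted p under 0.05 (Apoo, Apool, Dnajc11 and Atad3a), and DESeq2 called 1, Apool. Of the markers, 9 of 9 β cell genes had a negative difference (median −1.19) and 4 of 5 endothelial genes a positive one (0.82). Acinar genes had a median difference of 4.18, and 0 of 12 passed. Apool had a log2 difference of −0.49 (SE 0.15, edgeR adjusted p = 0.063; −0.51 and adjusted p = 0.012 by DESeq2), and passed by edgeR without β-Mfn1KO replicate 2 (−0.56, 0.048) or β-Mfn2KO replicate 5 (−0.52, 0.042), with sex (−0.52, 0.037) or the acinar score (−0.58, 0.030) as a covariate, with filterByExpr (−0.50, 0.029) and after counts were drawn down to the smallest total (−0.59, 0.038). Without β-Mfn1KO replicate 4, the only male of its group, it was −0.34, and with total-count scaling −0.35. For Atad3a the log2 difference was 0.26 (SE 0.12, edgeR adjusted p = 0.23). Total-count scaling, which raised the median of all genes by 0.13 here, brought Atad3a to 0.39 and Dnajc11 to 0.26 (edgeR adjusted p = 0.048 and 0.042).

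Within pairs of related proteins the ratio of the 2 genes' counts in a library does not depend on a factor shared by the whole library. The authors' factors, which differ by gene, do act on it: relative to the library median they differed between β-Mfn1/2DKO and Ctrl by 0.18 for Phb and −0.03 for Phb2 (log2). The translated coding sequences of Phb and Phb2 (272 and 299 residues) share 52.6% of 270 aligned residues, those of Chchd3 and Chchd6 (227 and 273) 40.5% of 210, and those of Apoo and Apool (198 and 265) 39.6% of 197. Over 12 two-sided exact permutation tests, 3 pairs in 4 comparisons, the smallest Benjamini-Hochberg adjusted p was 0.30. The log2 ratio of Phb over Phb2 was 0.16 (SD 0.09) in Ctrl, 0.14 (SD 0.15) in β-Mfn1KO, 0.04 (SD 0.05) in β-Mfn2KO and 0.04 (SD 0.10) in β-Mfn1/2DKO. The differences from Ctrl, −0.13 in β-Mfn1/2DKO and −0.12 in β-Mfn2KO, did not pass (exact permutation p = 0.056 for β-Mfn1/2DKO and p = 0.030 for β-Mfn2KO, adjusted p = 0.30 for both). Without Ctrl replicate 3 the differences went from −0.13 to −0.16 and from −0.12 to −0.15, and both then passed (exact permutation, adjusted p = 0.048). With the authors' factors, a refit chosen after seeing the data, they were −0.34 and −0.17 (exact permutation, adjusted p = 0.052 and 0.40). Chchd3 over Chchd6 was 1.40 (SD 0.12), 1.25 (SD 0.08), 1.49 (SD 0.21) and 1.33 (SD 0.11) in the same order of groups, and Apoo over Apool 0.93 (SD 0.15), 0.91 (SD 0.30), 0.88 (SD 0.14) and 1.10 (SD 0.19).

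Other pairs were set side by side after their values had been seen, so they are described without a test. Atad3a reached 0.212 to 0.278 of the Immt count in Ctrl, 0.217 to 0.275 in β-Mfn1KO and 0.218 to 0.302 in β-Mfn2KO, but 0.325 to 0.405 in β-Mfn1/2DKO. Samm50 reached 0.577 to 0.746 of the Immt count in Ctrl, 0.613 to 0.773 in β-Mfn1KO, 0.638 to 0.741 in β-Mfn2KO and 0.796 to 0.838 in β-Mfn1/2DKO. For both ratios every double knockout library lay above all 15 others, and since a ratio within a library does not depend on its scaling factor, this held whatever the scaling of whole libraries. With the authors' factors, which differ by gene, this still held for Atad3a over Immt but not for Samm50 over Immt, where 0 of 5 double knockout libraries lay above all others and the mean log2 difference from Ctrl turned from 0.32 to −0.07. The mean log2 ratio of Atad3a over Immt was −2.05 in Ctrl and −1.49 in β-Mfn1/2DKO, a difference of 0.56, which was 0.46 without β-Mfn1/2DKO libraries 4 and 5 and 0.58 after counts were drawn down to the smallest total.

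**Figure D4:**
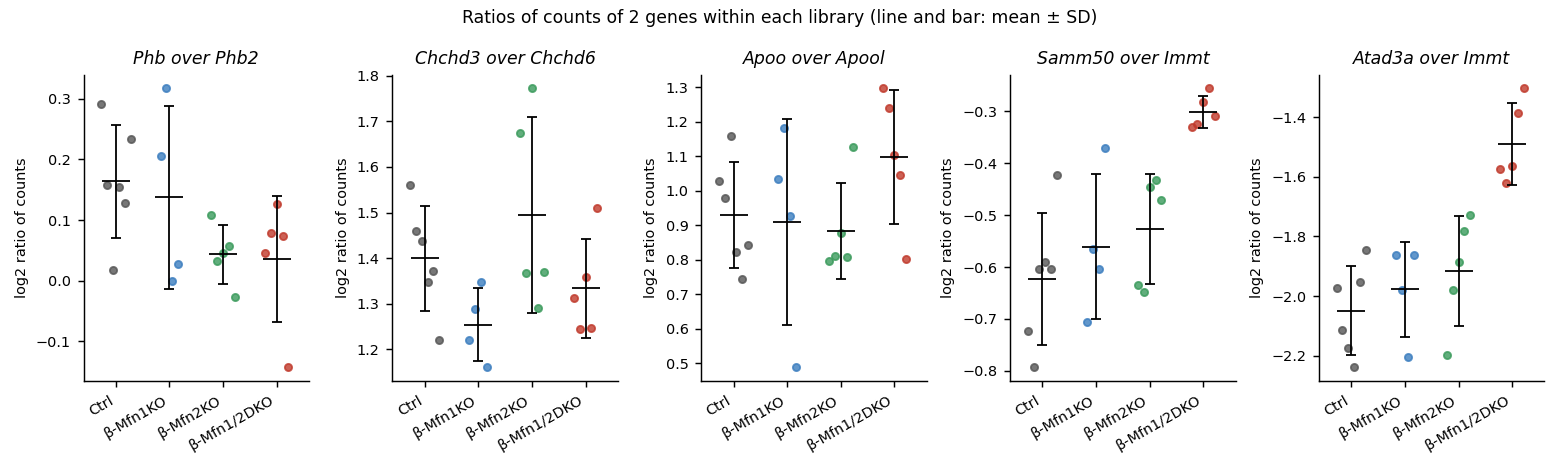
Log2 ratio of the counts of 2 genes (vertical axes) in every islet library by group, with the mean and SD as line and bar. The 3 left panels, pairs of related proteins, overlap between groups, while in the 2 right panels every β-Mfn1/2DKO library lies above all others, which for Samm50 over Immt did not hold with the authors' normalization factors (difference from Ctrl −0.07).

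Around the set stand 29 other genes of cristae and the inner membrane, listed by function. In β-Mfn1/2DKO against Ctrl 6 of 29 were higher and 3 lower by edgeR, with a median log2 fold change of 0.01, where 16.5% of all genes and 33.6% of the 12274 genes with a mean of 100 or more passed. Of 9 genes of further MICOS subunits (Minos1 and 2410015M20Rik) and of MICOS partners 3 rose and 0 fell. Chchd10, a small protein of the space between the membranes, went from 1957 to 2740 normalized counts in Ctrl to 4424 to 7021 in β-Mfn1/2DKO (log2 fold change 1.28, SE 0.11, edgeR adjusted p = 6.6e-08, 5 of 5 libraries above every Ctrl library). Its change was several times that of any of the 10 genes, and the call held in every refit, with 1.11 to 1.42. Mtx2, a partner of Samm50 in the outer membrane, rose (0.22, SE 0.06, adjusted p = 0.0081, 5 of 5 libraries), as did Tmem11 (0.31, SE 0.09, adjusted p = 0.016, 4 of 5 libraries).

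Of the 8 genes of inner membrane fusion and its proteases, 1 rose and 1 fell, where 33.6% of the 12274 genes passed. Opa1, the fusion protein of the inner membrane, was at 3086 to 3524 normalized counts in Ctrl and 3129 to 3468 in β-Mfn1/2DKO (log2 fold change −0.01, SE 0.05, edgeR adjusted p = 0.95), and no library of the double knockout lay outside the Ctrl range. Yme1l1, a protease that cleaves Opa1, fell from 6540 to 7873 down to 5281 to 5921 normalized counts (−0.36, SE 0.05, adjusted p = 2.2e-05, 5 of 5 libraries), and its call held in every refit, with −0.45 to −0.22. Stoml2, a relative of the prohibitins, rose (0.18, SE 0.06, adjusted p = 0.034, 4 of 5 libraries).

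Of the 4 subunits at the dimer interface of ATP synthase, which line the rims of cristae, 0 rose and 2 fell. In this comparison 33.6% of the 12274 genes passed. The 2 that fell were Usmg5, from 2153 to 3010 down to 1478 to 1717 normalized counts (log2 fold change −0.71, SE 0.13, edgeR adjusted p = 0.00056, 5 of 5 libraries), and Atp5k (−0.79, SE 0.20, adjusted p = 0.0085, 3 of 5 libraries). With the authors' normalization factors neither passed, at −0.23 and −0.33 (edgeR adjusted p = 0.079 and 0.10), and Atp5k missed the threshold without β-Mfn1/2DKO libraries 4 and 5 (−0.73, 0.051). With depth class as a covariate they were at −1.39 and −1.84, the largest values of any refit. Of the 8 genes of cardiolipin synthesis and transport 2 rose and 0 fell, Prelid3b (0.22, SE 0.06, edgeR adjusted p = 0.012, 4 of 5 libraries) and Pgs1 (0.19, SE 0.06, edgeR adjusted p = 0.021, 4 of 5 libraries). All 8 log2 fold changes were positive, from 0.11 to 0.25, where the median of all genes was 0.06. All 8 were positive in β-Mfn1KO against Ctrl as well, but so were 25 of all 29 other genes and 8 of the 10 members. In β-Mfn1/2DKO 2 of 8 rose against β-Mfn2KO (median 0.21), where 26.6% of the 12274 genes passed in either direction. Against β-Mfn1KO 0 of 8 passed (median 0.06), where 35.1% of the 12274 genes did. Whether the list moved together was not tested.

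The smaller calls of that list were lost in several refits. With depth class as a covariate Mtx2 was at 0.06, Tmem11 at 0.18, Stoml2 at 0.17, Pgs1 at 0.06 and Prelid3b at 0.20 (edgeR adjusted p = 0.89, 0.68, 0.52, 0.92 and 0.41). With the acinar score Tmem11 was at 0.26 (0.053) and Pgs1 at 0.18 (0.057), and without β-Mfn1/2DKO libraries 4 and 5 they were at 0.26 (0.093) and 0.16 (0.13). With DESeq2 size factors Stoml2 was at 0.15 (0.080) and Pgs1 at 0.16 (0.053), and after counts were drawn down to the smallest total Mtx2, Stoml2 and Pgs1 were at 0.16, 0.15 and 0.16 (edgeR adjusted p = 0.074, 0.14 and 0.077). Tmem11 missed the threshold without β-Mfn1/2DKO replicate 5 (0.27, edgeR adjusted p = 0.051), and Pgs1 without Ctrl replicate 4 (0.17, 0.057) or β-Mfn1/2DKO replicate 5 (0.18, 0.051). Stoml2 missed it without Ctrl replicate 1, 2, 5 or 6 (0.17, 0.18, 0.16 and 0.17, adjusted p = 0.066, 0.050, 0.074 and 0.056). With the authors' normalization factors Mtx2 was at 0.13 (0.27), Stoml2 at 0.05 (0.68), Pgs1 at 0.16 (0.13) and Prelid3b at 0.19 (0.069).

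**Figure D5:**
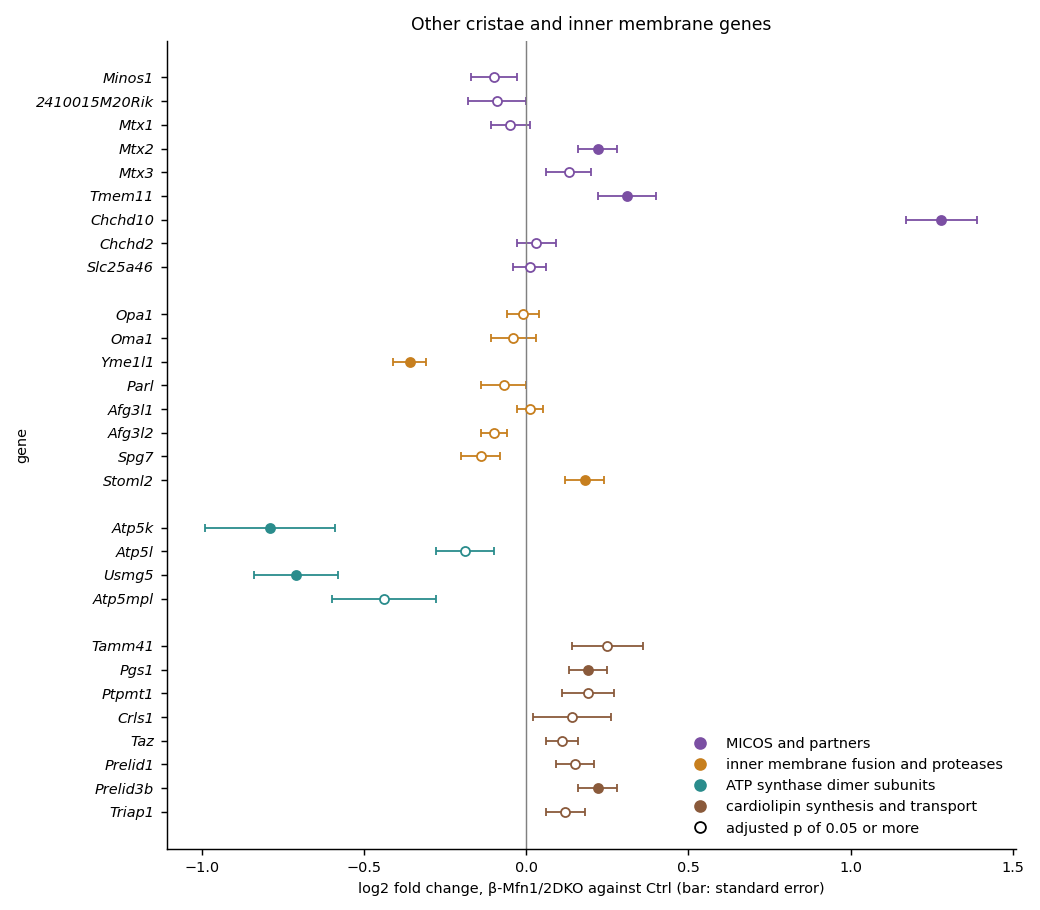
Log2 fold change of 29 other cristae and inner membrane genes in β-Mfn1/2DKO against Ctrl islets (horizontal axis, bars SE), coloured by function and filled where the edgeR adjusted p was under 0.05. Chchd10 lies at 1.28 and the ATP synthase dimer subunits lie below 0, at −0.79 to −0.19, while Opa1 lies at −0.01.

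In the other comparisons of the 29 genes, 0 passed by edgeR in β-Mfn2KO against Ctrl (0 at an unadjusted p under 0.05, 0 by DESeq2) and 0 in β-Mfn1KO against Ctrl (5 at an unadjusted p under 0.05, 0 by DESeq2). Against β-Mfn2KO, 4 were higher and 3 lower in β-Mfn1/2DKO, where 13.0% of all genes and 26.6% of the 12274 passed, and against β-Mfn1KO 2 were higher and 6 lower, where 17.4% and 35.1% did. The effect of Mfn1 loss differed with and without Mfn2 for 4 of 29 by edgeR, 1 positive and 3 negative, where 5.92% of all genes and 12.8% of the 12274 passed. Chchd10 was the positive 1 (log2 difference 1.09, SE 0.17, edgeR adjusted p = 0.00056), and Usmg5 had the largest negative value (−1.0, SE 0.19, adjusted p = 0.0030), which ran from −1.37 with depth class as a covariate to −0.61 with the authors' normalization factors.

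For Immt and for Atad3a, the gene of the set with the largest change, the 5 genes of most similar pattern over the 20 libraries were found among 12274 genes by the root mean square difference of log2 CPM, each gene centred on its mean. For Immt they were Tm9sf4 (0.0412), Dnajc5 (0.0463), Tcf25 (0.0479), Gdi2 (0.0483) and N4bp2l2 (0.0494), where the median gene differed by 0.177. For Atad3a they were Bcl2l1 (0.0899), Aup1 (0.0918), Ttc27 (0.0938), Vasp (0.0962) and Ddx27 (0.0984), with a median of 0.248. The root mean square deviation of Immt itself was 0.0827, and that of Atad3a 0.200.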

How the data were processed

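By the submitters' processing notes, the authors trimmed reads with cutadapt 2.3 and checked them with FastQC 0.11.8. They aligned them to GRCm38 with STAR 2.6.1b and estimated gene counts with RSEM 1.3.1. The study's methods name the same tools except cutadapt. The values used are the whole-number counts the authors deposited for 28632 genes in 20 libraries. The authors also deposited a second table of signal, those counts divided by normalization factors from DESeq2 1.26.0, which served only for the alternative that uses the authors' factors.

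Here all 4 groups were fitted together without covariates by edgeR's quasi-likelihood test (edgeR 4.0.16, limma 3.58.1, R 4.3.3), with TMM scaling, no filter on low counts and Benjamini-Hochberg adjustment over all 28632 genes. DESeq2 1.42.0 was the second tool. The procedure was first checked on simulated counts. Summaries, exact permutation tests and plots used Python 3.11.15 with NumPy 2.4.6, pandas 2.3.3, SciPy 1.17.1 and Matplotlib 3.10.9. Symbols came from matching Ensembl identifiers to the reference annotation, and 53 genes had no symbol.

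All 10 members are named whatever their values. Of the 29 other genes, those with an adjusted p under 0.05 in β-Mfn1/2DKO against Ctrl are named, and Opa1 always. Genes of similar pattern were sought among those whose mean normalized count reached 100, members left out. Members and lists were chosen with earlier results of these data known.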

Additional observations from a re-analysis of the deposited data

Results flagged for a closer look

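In 3 of 40 groups, each a gene in the libraries of 1 genotype, a single library stood far from the others, measured as its gap to the nearest library divided by the range of the group. Chance alone marks about 1 in 20 such groups. Chchd6 in Ctrl 6 was at 1040 normalized counts, the highest of 6 libraries, with the nearest at 878.3, a gap of 0.959 of the range. Apool in β-Mfn1KO 4, the only male of its group, was at 568.3, the highest of 4 libraries, with the nearest at 407.3, a gap of 0.84 of the range. Apool in β-Mfn1/2DKO 1 was at 284.7, the lowest of 5 libraries, with the nearest at 327.0, a gap of 0.737 of the range.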

How the results depend on the processing

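Of 1980 values of the 10 genes over 6 comparisons and their settings, 1858 kept their direction and side of the threshold or were uncalled with either sign (64 of these changed sign), 79 lost a call, 41 gained one and 2 reversed. The reversals were Samm50 in β-Mfn1/2DKO against Ctrl with the authors' normalization factors (−0.29) and Immt in β-Mfn1/2DKO against β-Mfn1KO with total-count scaling (0.01). Genotype cannot be told apart from depth, nor from the lower β cell marker share, for which no refit was run. Apart from the filters and smaller sets of libraries, which change what is tested by construction, the cause was not tested.

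Members passing in β-Mfn1/2DKO against Ctrl (6 of 10) numbered 3 with the authors' normalization factors, 3 after counts were drawn down to the smallest total, 3 without β-Mfn1/2DKO libraries 4 and 5, 0 with depth class as a covariate and 0 with a fold change over 1.5. Against β-Mfn2KO (3) they were 6 with total-count scaling, 5 with filterByExpr, 5 in a fit to the groups compared, 1 without β-Mfn1/2DKO libraries 4 and 5, and 0 with depth class, 0 with the deep β-Mfn2KO libraries 4 and 5 only and 0 with a fold change over 1.5. Against β-Mfn1KO (4) they were 2 in a fit to the groups compared, 1 with the acinar score, 1 without β-Mfn1/2DKO libraries 4 and 5, 0 with depth class and 0 with a fold change over 1.5. For the difference of Mfn1 loss without and with Mfn2 (0) they were 2 with total-count scaling and 1 each with DESeq2, filterByExpr, sex, the acinar score and counts drawn down; this contrast needs all groups, so no fit to the groups compared exists. Leaving out 1 library gave 4 to 6, 2 to 5, 2 to 5 and 0 to 1 members in these 4 comparisons.

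Of the 29 other genes, those passing in β-Mfn1/2DKO against Ctrl (9) numbered 17 with total-count scaling, 5 with the authors' normalization factors, 5 with depth class and 3 with a fold change over 1.5. Against β-Mfn2KO (7) they were 15, 2, 4 with the deep β-Mfn2KO libraries 4 and 5 only, and 3 with a fold change over 1.5, the first 2 again for total-count scaling and the authors' factors. Against β-Mfn1KO (8) they were 14 with DESeq2, 15 with total-count scaling, 14 with filterByExpr, 5 with the acinar score and 3 with a fold change over 1.5, and for the difference of Mfn1 loss (4) 2 with a fold change over 1.5. Leaving out 1 library gave 5 to 9 against β-Mfn1KO and 2 to 5 for the difference. Phb over Phb2 ranged from −0.16 to −0.08 in β-Mfn1/2DKO and from −0.15 to −0.10 in β-Mfn2KO, against Ctrl, when 1 library was left out. The Atad3a over Immt refits were chosen after seeing the data and ranged from 0.46 to 0.60, and Samm50 over Immt went from 0.32 to −0.07 with the authors' normalization factors.

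All-gene counts in β-Mfn1/2DKO went from 4710 to 728 against Ctrl, from 3719 to 1683 against β-Mfn2KO and from 4971 to 1235 against β-Mfn1KO with depth class, and the difference of Mfn1 loss from 1694 to 911, or 2851 by DESeq2. With the deep β-Mfn2KO libraries 4 and 5 only, 1805 passed. β-Mfn1KO against Ctrl went from 8 to 24 with DESeq2, 3 in a fit to the groups compared and 3 to 28 when 1 library was left out.

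With a replicate block, 5 of 10 members passed in β-Mfn1/2DKO against Ctrl and all-gene counts in β-Mfn2KO against Ctrl went from 16 to 25. Dnajc11 was then at 0.13 (edgeR adjusted p = 0.055) against Ctrl and 0.14 (0.064) against β-Mfn1KO. Of 27 pairs of libraries with the same number 21 had a correlation of deviations above 0.1, the lowest was −0.094, and the mean was 0.253 against −0.056 for other pairs. Not every pair passed 0.1 and the labels name no shared animal, litter or day, so the numbers were not taken as pairs. As a hint from the data, 10 of 19 libraries correlated best with one of their own number. Of the 27 pairs 23 were of the same sex (mean 0.299, against 0.187 for same-sex pairs of other numbers).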
